A study of Mus musculus with 12 samples.

Results

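The 26S proteasome is the large protease of the cytosol and nucleus that degrades proteins marked with ubiquitin. Its 20S core is a barrel of alpha and beta rings, with the protease sites on beta subunits inside, and its 19S cap binds ubiquitin chains, unfolds the substrate with a ring of ATPases and removes the ubiquitin with the lid. In oocytes and early embryos it takes part in meiotic exit and in the clearance of maternal proteins. The genes described here are the 37 of the 11298 complete entries of the expression table whose symbol starts with Psma, Psmb, Psmc or Psmd followed by a digit. They comprised 7 genes of the alpha ring (Psma1 to Psma7), 4 non-catalytic genes of the beta ring (Psmb1 to Psmb4), the 3 constitutive catalytic genes (Psmb5, Psmb6 and Psmb7), and Psmb10 and Psmb11, which encode catalytic subunits of the immune and thymus forms. The 19S cap was represented by 6 ATPase genes (Psmc1 to Psmc6), 3 non-ATPase genes of the base (Psmd1, Psmd2 and Psmd4) and 8 lid genes (Psmd3, Psmd6, Psmd7, Psmd8, Psmd11, Psmd12, Psmd13 and Psmd14). Psmd5, Psmd9 and Psmd10 encode chaperones of 19S assembly. Psmc3ip matched by its letters alone: it encodes a meiotic recombination factor and no proteasome subunit, which left 36 proteasome genes. Psma8, Psmb8 and Psmb9 were not analysed here.

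Polyadenylated RNA was measured by Smart-seq2, a full-length method primed with oligo-dT, in 12 libraries of 10 oocytes or embryos each. All came from mice of the C57BL/6 background. The 6 groups of 2 libraries were oocytes at the germinal vesicle stage (GV; meiosis arrested in prophase), 1-cell embryos and 2-cell embryos, each as Pabpn1l-WT (WT) and Pabpn1l-KO (KO). Pabpn1l encodes a cytoplasmic relative of the nuclear poly(A)-binding protein, and the study's title places it in the decay of mRNA during the maternal-to-zygotic transition. Oocytes were taken in vivo and embryos were kept in culture. How the KO allele was made is not given. The labels do not say whether the mother, the embryo or both lacked the gene, nor whether replicate libraries were made from different animals. The p-values therefore speak only of how far these samples spread, which could be technical.

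Pabpn1l stood at 220.1 and 204 FPKM (fragments relative to transcript length and to all that mapped) in the WT and at 7.23 and 4.98 in the KO oocyte libraries (log2 fold change −4.92 with an SE of 0.27 and a limma adjusted p of 0.000288). At the 1-cell stage it stood at 16.4 and 12.2 in WT and 2.57 and 4.55 in KO libraries, and at the 2-cell stage all 4 libraries were below 2 FPKM, so there the gene could not check the labels. None of the 9 oocyte markers was at the lowest listed value in both libraries of an oocyte group, and they summed to between 11941 and 13196 FPKM in oocyte libraries. In 1-cell libraries they summed to 1884 to 2464 in WT and 5300.4 to 6371 in KO, and in 2-cell libraries to 435 to 436 in WT and 1125 to 1213 in KO. Of 11 cumulus and granulosa markers 3 had an entry, with a sum of 69.3 to 84.4 FPKM in oocytes, 9.71 to 14.04 in WT and 19.3 to 24.1 in KO 1-cell libraries, and 1.14 to 1.65 in 2-cell libraries. The 5 blood and immune markers of 10 that had an entry summed to 17.2 to 19.1 FPKM in oocytes. In embryos these 5 summed to 2.69 to 3.25 in WT and 6.77 to 13.1 in KO 1-cell libraries, and to 1.16 to 5.02 in 2-cell libraries. The 3 sperm markers of 8 with an entry summed to 59.1 to 73.1 FPKM in oocytes, 1.71 to 2.56 in WT and 5.40 to 6.02 in KO 1-cell libraries, and 0 to 1.74 in 2-cell libraries, counting values above the lowest listed one. On the deposited scale the oocyte, cumulus, blood and sperm lists were thus all higher in KO than in WT 1-cell libraries, as were most members. Of 8 genes known as transient markers of the 2-cell stage 4 had an entry. Tdpoz1, Tdpoz4 and Dub1 were at the lowest listed value in all oocyte and 1-cell libraries. None of the 4 was at it in both WT 2-cell libraries, and Tdpoz4 was in both KO 2-cell libraries. The 4 summed to 35.4 to 44.3 FPKM in oocytes, and to 1.61 to 2.14 in WT and 20.3 to 23.7 in KO 1-cell libraries. At the 2-cell stage they summed to 6.87 to 7.99 in WT and 2.02 to 4.59 in KO. In oocytes and 1-cell libraries that sum came from the fourth gene alone, so this list was not low before the 2-cell stage. Of the 3 cumulus and granulosa genes, only Fshr was at the lowest listed value in both libraries of each 1-cell group. At the 2-cell stage Fshr and Cyp19a1 were at it in both libraries of each group. In oocytes none of the 3 was at it in both libraries of a group. The part of other cell types in the results was not tested.

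No value in the table was under 1 FPKM, called the floor here, and a value of 1 says only that a gene was at or under it. The embryo columns had been multiplied by 1 factor per library, and what it rests on is not given in the sources used here: 0.269 and 0.212 in the WT and 0.432 and 0.552 in the KO libraries of the 1-cell stage, 0.116 and 0.123 in the WT and 0.13 and 0.121 in the KO libraries of the 2-cell stage. The factor was 1 in oocytes. Each comparison below is therefore given on the deposited scale and on values divided by the factor, called before the factor. Over genes above the floor, dividing by it moved the median KO to WT ratio (log2) from 1.04 to 0.01 at the 1-cell stage and from 0.13 to 0.05 at the 2-cell stage. Read counts are not part of the table, so depth is unknown. All fold changes are on the log2(FPKM + 1) scale, which understates the change of genes with low values, and a gene is called at an adjusted p under 0.05 over all 11298 genes.

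GV oocytes held proteasome mRNA at high levels in both genotypes, and no member was called different between them. The alpha subunit gene Psma2 was the most abundant member, at 955 and 1102 FPKM in WT against 1060.1 and 1163 in KO oocytes. Without Psmb10 and Psmb11, the group means of the other 35 members spanned 5.21 to 1029 FPKM in WT, with a median of 156, and 4.06 to 1111 in KO, with a median of 162. FPKM is per length, but some members share much sequence with other genes, so levels of different genes can be set side by side only roughly.

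Of the 3 constitutive protease genes, Psmb5 had the lowest listed FPKM in oocytes and Psmb6 and Psmb7 were close to each other. Of all stretches of 31 bases, 74.0% in Psmb5 also occur in other genes, against 15.4% in Psmb6 and 4.07% in Psmb7. The level of Psmb5 is therefore uncertain, and so is its rank. Psmb5, the gene of the chymotrypsin-like subunit, stood at 128 and 128 FPKM in WT against 156 and 130.01 in KO libraries (log2 fold change 0.16 with an SE of 0.20 and a limma adjusted p of 1). Psmb6, which encodes the caspase-like subunit, stood at 383 and 389 in WT and 384 and 408 in KO libraries (log2 fold change 0.04 with an SE of 0.23 and a limma adjusted p of 1). Psmb7, for the trypsin-like subunit, stood at 372 and 390.2 in WT and 375 and 419.95 in KO libraries (log2 fold change 0.06 with an SE of 0.20 and a limma adjusted p of 1). The KO values of Psmb5 lay above both WT values, while the genotypes overlapped for Psmb6 and Psmb7.

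The other protease genes were hardly listed above the floor. Psmb10, the immunoproteasome counterpart of Psmb7, stood at 1 and 1.14 FPKM in WT oocytes and at 1 in the other 10 libraries (log2 fold change −0.05 with an SE of 0.04 and a limma adjusted p of 1 in oocytes). Psmb11, the gene of the thymus form, reached 1.13 and 1.07 FPKM in KO oocytes and was at 1 elsewhere. The lid gene Psmd13 was low as well, at 5.64 and 4.78 in WT and 5.35 and 2.77 in KO oocytes and at 1 in all 4 libraries of the 1-cell stage.

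Between genotypes, 0 of the 37 members were called higher and 0 lower in oocytes by limma, beside 0.584% and 1.04% of all genes. At an unadjusted p under 0.05 the counts were also 0 and 0, and they were the same before the factor, which is 1 here, beside 0.0177% of all genes in each direction. The members' log2 fold changes had a median of 0.05, against −0.02 over all genes. KO and WT libraries overlapped for 26 members, the KO libraries lay above WT for 9 and below for 2. Overlap was not counted over all genes, so this split is not a result about the members. These p-values do not show that the genotypes were alike: the SE of a single member reached 0.37.

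**Figure D1:**
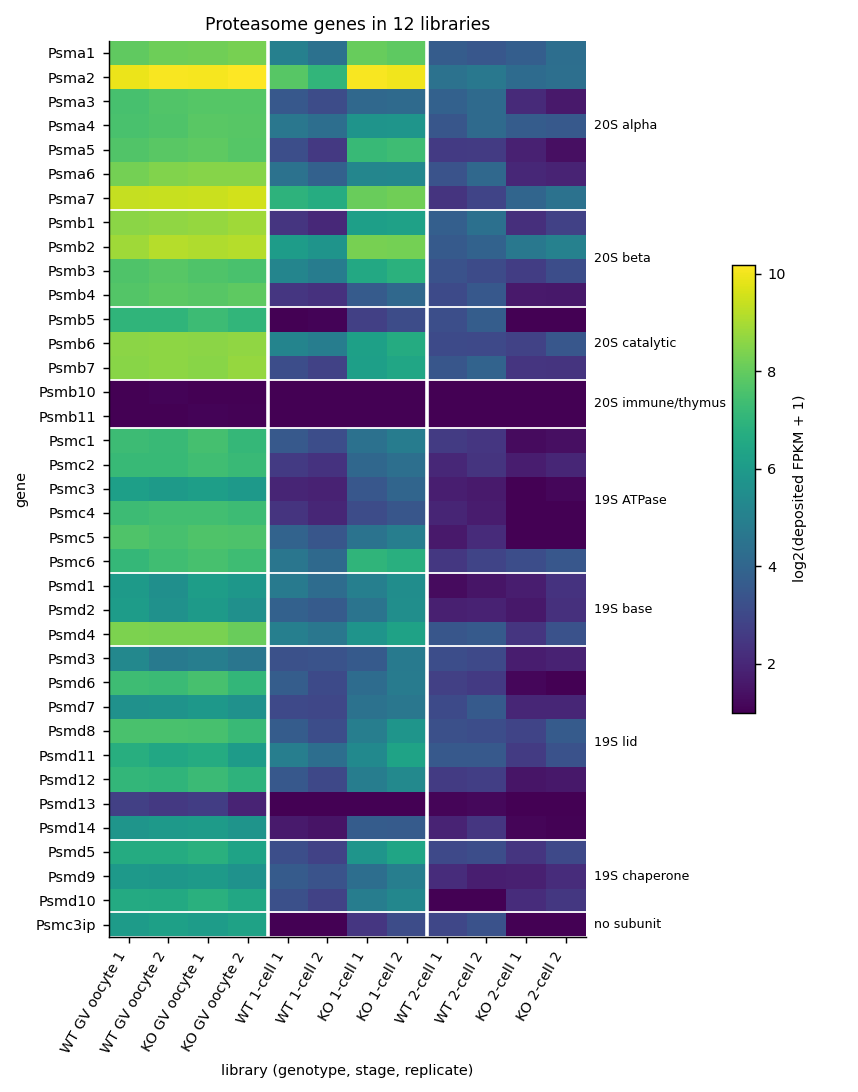
Deposited expression, as log2(FPKM + 1), of the 37 members (rows) in the 12 libraries (columns, by genotype, stage and replicate). Brighter colours are higher values. Colour is even across the 4 oocyte libraries, where Psma2 reaches 1163 FPKM. It darkens in WT 1-cell libraries more than in KO 1-cell libraries, and is darkest in KO 2-cell libraries. Psmb10 and Psmb11 are dark throughout.

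From the oocyte to the 1-cell embryo, most proteasome genes fell in both genotypes. In WT 35 of 37 members were called lower and 0 higher (85.8% and 0.0354% of all genes), and before the factor 27 and 0 (27.9% and 12.3%). In KO 28 members were called lower and 0 higher (66.9% and 0.23% of all genes), and before the factor 21 and 2 (26.4% and 13.2%). The 2 called higher before the factor were Psma1 and Psma2, named after their values were seen. On the deposited scale the members' median log2 fold change was −3.58 in WT, against −1.49 over all genes, and −2.01 in KO, against −0.74. Over genes above the floor the median log2 ratio, with no 1 added, was −2.16 in WT and −1.04 in KO. By the labels each library pooled 10 oocytes or 10 embryos, so the number of cells was the same at these stages, and bulk libraries do not show how a level varied from cell to cell.

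In WT the steepest falls among members were those of Psmb1, Psmb5 and Psmb7. Psmb1 encodes a structural subunit of the beta ring, and it went from 381 and 406 to 4.32 and 3.21 FPKM (log2 fold change −6.38 with an SE of 0.24 and a limma adjusted p of 7.66e-08). Psmb5 went from 128 and 128 to 1 and 1.13, at the floor in 1 library (log2 fold change −5.97 with an SE of 0.20 and a limma adjusted p of 6.2e-08). Psmb7 went from 372 and 390.2 to 8.12 and 6.07 (log2 fold change −5.57 with an SE of 0.20 and a limma adjusted p of 6.61e-08). In KO the steepest were Psmb5, the ATPase gene Psmc4 and the beta ring gene Psmb4. Psmb5 went from 156 and 130.01 to 5.74 and 7.74 FPKM (log2 fold change −4.22 with an SE of 0.20 and a limma adjusted p of 3.94e-07). Psmc4 went from 168 and 156 to 7.72 and 9.91 (log2 fold change −4.06 with an SE of 0.18 and a limma adjusted p of 3.42e-07), and Psmb4 from 224 and 241 to 11.5 and 16.2 (log2 fold change −3.99 with an SE of 0.20 and a limma adjusted p of 4.95e-07). In each of these genes no embryo value reached the lowest oocyte value of its genotype.

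Set against the oocyte, the members had kept very different shares of their mRNA in KO embryos. Over 35 members, the 1-cell level as a percent of the oocyte level (ratio of group means, deposited scale) ran from 0.832% to 40.05% in WT, with a median of 7.18%, and from 4.71% to 94.4% in KO, with a median of 24.3%. Psma2 stood at 94.4% in KO and 17.1% in WT, and Psma1 at 82.8% and 9.78%. Psma5 stood at 65.9% in KO and at 3.004% in WT. At the other end Psmb5, Psmc4 and Psmb4 stood at 4.71%, 5.45% and 5.96% in KO embryos. The lid genes Psmd11 (72.1%) and Psmd3 (72.03%), Psmd5 (71.5%) and the ATPase gene Psmc6 (69.4%) stood above Psma5 in KO, while the alpha genes Psma3 (7.62%) and Psma6 (10.1%) were near the low end. Alpha and ATPase genes thus lay at both ends. The genes of this paragraph were chosen after their values were seen.

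**Figure D2:**
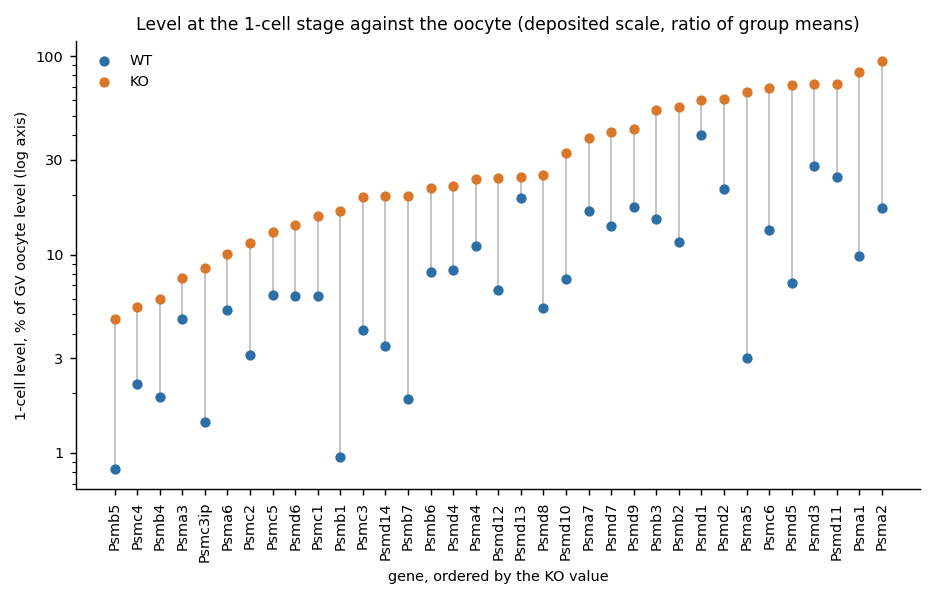
Level of 35 members at the 1-cell stage as a percent of the GV oocyte level of the same genotype (log axis, ratio of group means on the deposited scale), ordered by the KO value. The KO point lies above the WT point for the genes shown, with the widest gap at Psma5 (65.9% against 3.004%), and the values carry the library factors. Psmd13 was at the floor in all 1-cell libraries, so its gap reflects the oocyte levels only.

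At the 1-cell stage nearly all proteasome genes were higher in KO than in WT embryos, most of all Psma5, Psmb1, Psmb7, Psma1, Psmd5 and Psma2. On the deposited scale 32 of 37 members were called higher and 0 lower, beside 52.7% and 0.0974% of all genes. Before the factor 17 were called higher and 0 lower, beside 8.05% and 2.89% of all genes. All 17 were among the 32, and the same 17 were called after quantile normalization. The members' median log2 fold change was 1.49 on the deposited scale, against 0.57 over all genes, and 0.64 before the factor, against 0. Over genes above the floor the median log2 ratio, with no 1 added, was 1.04 as deposited and 0.01 before the factor. Both KO libraries lay above both WT libraries for 34 members, and the exceptions were Psmb10, Psmb11 and Psmd13, at the floor in all 4 libraries. The share of all genes without overlap was not worked out, so the 34 cannot be told from the shift of the whole table. The base gene Psmd1 (log2 fold change 0.72) and the lid gene Psmd3 (0.89) did not pass the test.

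In the alpha ring, whose 7 genes were all called higher as deposited, the difference was concentrated in 3 of them. Psma5 stood at 8.26 and 4.72 FPKM in WT against 144 and 159 in KO embryos, a 23.3-fold ratio of means (log2 fold change 4.39 with an SE of 0.24 and a limma adjusted p of 1.03e-05). Psma1 stood at 31.1 and 20.3 in WT and 263 and 238 in KO embryos (log2 fold change 3.26 with an SE of 0.24 and a limma adjusted p of 3.67e-05). Psma2 stood at 222 and 130.1 in WT and 1088 and 1010.4 in KO embryos (log2 fold change 2.62 with an SE of 0.24 and a limma adjusted p of 8.79e-05). For these 3 genes the lowest KO value was more than 4 times the highest WT value. Before the factor their log2 fold changes were 3.52, 2.27 and 1.59, and all 3 were called. The other 4 alpha genes were not called on that scale: Psma3 stood at −0.16 there, Psma6 at 0.09, Psma7 at 0.31 and Psma4 at 0.32.

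In the beta ring, Psmb1 was at 4.32 and 3.21 FPKM in WT against 71.99 and 75.5 in KO embryos, a 19.6-fold ratio of means (log2 fold change 3.98 with an SE of 0.24 and a limma adjusted p of 1.41e-05). Psmb7 was at 8.12 and 6.07 in WT and at 70.9 and 86.1 in KO embryos (log2 fold change 3.30 with an SE of 0.20 and a limma adjusted p of 1.41e-05). Before the factor the values were 3.20 for Psmb1 and 2.41 for Psmb7, both called. In both genes the genotypes were far apart at this stage, whereas in oocytes they overlapped for Psmb7 and the KO libraries lay just above WT for Psmb1. Psmb5 was at 1 and 1.13 FPKM in WT against 5.74 and 7.74 in KO embryos (log2 fold change 1.90 with an SE of 0.20 and a limma adjusted p of 0.00016). Psmb6 was at 34.2 and 28.8 in WT and 73.5 and 98.9 in KO embryos (log2 fold change 1.41 with an SE of 0.23 and a limma adjusted p of 0.00151), and before the factor its log2 fold change was 0.41 (limma, adjusted p = 0.406), not called. As Psmb5 was at the floor in 1 WT library and close to it in the other, the size of its difference is not fixed, and the 3 protease genes cannot be ranked by it. Of the other beta genes, Psmb2 and Psmb4 were called on both scales and Psmb3 as deposited only (before the factor 0.67, limma, adjusted p = 0.062).

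In the 19S cap, all 6 ATPase genes, 2 of 3 base genes and 6 of 8 lid genes were called higher as deposited, and 3, 0 and 3 of them before the factor. The ATPase gene with the largest value was Psmc6, at 23.4 and 16.7 FPKM in WT against 128 and 109 in KO embryos (log2 fold change 2.52 with an SE of 0.21 and a limma adjusted p of 6.02e-05). The lid gene with the largest value was Psmd14, which encodes the deubiquitinase of the lid, at 2.14 and 1.83 in WT and 11.8 and 11.3 in KO embryos (log2 fold change 2.08 with an SE of 0.19 and a limma adjusted p of 8.8e-05). Psmc6 and Psmd14 were named after their values were seen. Among the assembly chaperones, Psmd5 was at 8.32 and 6.06 in WT and 54.3 and 84.1 in KO embryos (log2 fold change 3.08 with an SE of 0.28 and a limma adjusted p of 9.14e-05), and 2.18 before the factor. Psmd10 and Psmd5 were called on both scales and Psmd9 as deposited only. Psmc3ip, the recombination factor, was listed at 1 in WT, and at 4.42 and 7.89 in KO embryos.

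Leaving out 1 library ended the deposited call of 6 members, Psma3, Psma6, Psmd2, Psmd4, Psmd6 and Psmd11, none of which was called before the factor. The libraries concerned were replicate 2 of WT for all 6 and replicate 2 of KO for all but Psma6. Psmd1 passed without replicate 1 of WT or of KO, and Psmd3 without replicate 1 of KO, where its log2 fold change was 1.49.

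**Figure D3:**
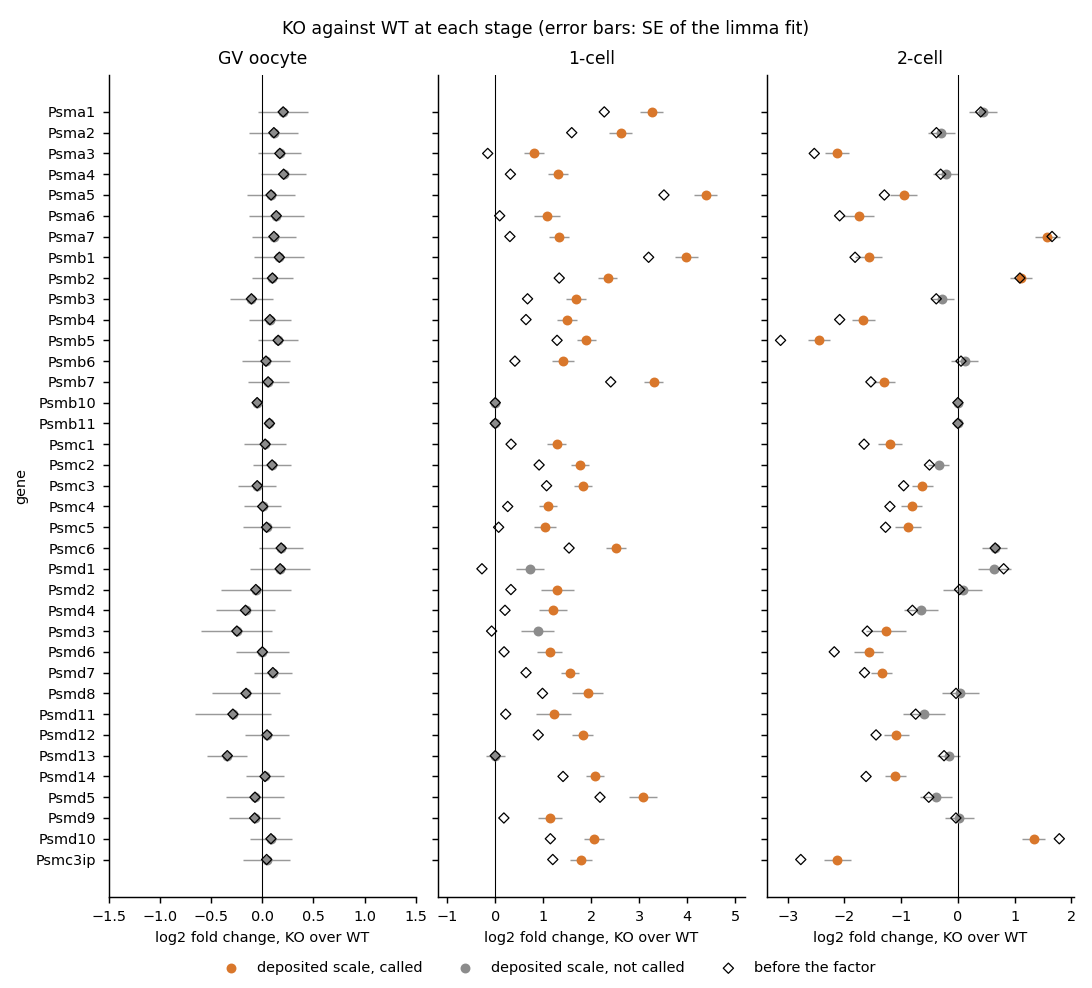
Log2 fold change of KO over WT for each member at the 3 stages (filled points: deposited scale, coloured where called; open diamonds: before the factor; bars: SE of the limma fit). Oocyte points lie near 0, 1-cell points lie to the right with Psma5 at 4.39 and Psmb1 at 3.98, and 2-cell points spread to both sides, from −2.45 for Psmb5 to 1.58 for Psma7.

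Ratios between members within 1 library do not depend on the library factor, and they changed as well. Psmb1 stood to Psma6 at 1.23 and 1.16 in WT and 1.16 and 1.29 in KO oocytes. At the 1-cell stage the ratio was 0.205 and 0.240 in WT and 1.97 and 2.06 in KO embryos. The ratio of this beta to this alpha gene was thus above 1 in both KO and far below 1 in both WT libraries. The ratio of Psmb7 to Psmb6, both protease genes, was 0.973 to 1.03 in the 4 oocyte libraries, and at the 1-cell stage 0.237 and 0.211 in WT against 0.964 and 0.871 in KO. In KO 1-cell embryos this ratio lay near that of the oocyte, and in WT below it. The ratio of Psma5 to Psma4 was 0.987 to 1.13 in oocytes, 0.349 and 0.251 in WT and 2.68 and 2.95 in KO 1-cell libraries. At the 2-cell stage the order of the genotypes was the other way for 2 of these ratios: Psmb7 to Psmb6 was 1.36 and 2.03 in WT and 0.717 and 0.412 in KO, and Psma5 to Psma4 was 0.477 and 0.299 in WT and 0.224 and 0.150 in KO. That of Psmb1 to Psma6 overlapped there, at 1.40 and 1.22 in WT and 1.204 and 2.13 in KO. These pairs were chosen after the values were seen, and the ratios were not tested.

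The summed FPKM of all members was also taken as a percent of the library's sum, with values at the floor counted as 0. Scaling a column leaves this share as it is, but which genes stood above the floor depended on the factor. Before the factor the floor was 1.81 and 2.31 FPKM in KO and 3.71 and 4.71 in WT 1-cell libraries, and 7.68 to 8.61 in 2-cell libraries. The share was 1.26% and 1.29% in WT and 1.31% and 1.29% in KO oocytes. At the 1-cell stage it was 0.680% and 0.638% in WT and 1.32% and 1.17% in KO embryos, and at the 2-cell stage 0.502% and 0.541% in WT and 0.287% and 0.376% in KO embryos. The members' share was thus higher in KO than in WT at the 1-cell stage and lower at the 2-cell stage, with no overlap of the libraries. Psma2 alone made up 35.3% and 30.5% of the members' sum in KO and 26.7% and 21.7% in WT 1-cell libraries.

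**Figure D4:**
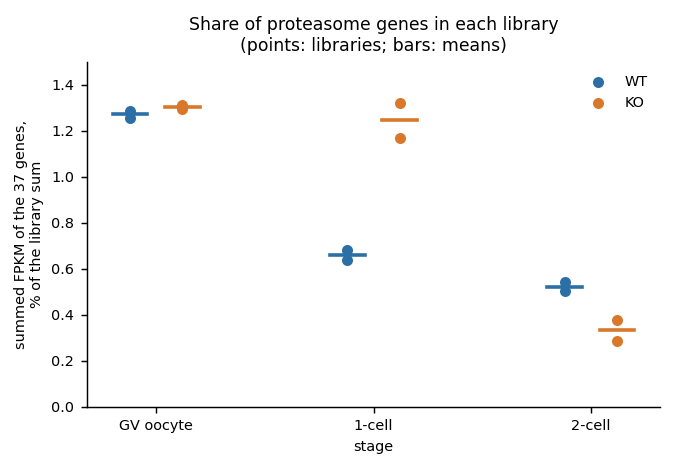
Summed FPKM of the 37 members as a percent of the summed FPKM of the library, by stage and genotype (points: libraries; bars: means of 2). WT and KO meet at 1.26% to 1.31% in oocytes, KO is above WT at the 1-cell stage (1.17% and 1.32% against 0.638% and 0.680%) and below it at the 2-cell stage.

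Maternal mRNA stability and translation are tied to elements near the 3′ end of the transcript, and the cytoplasmic polyadenylation element is the best known of them. TTTTAT or TTTTAAT, 2 common forms of it, lay in the last 100 bases of the 3′ UTR of 4 of 37 members, Psma1, Psma5, Psmb1 and Psmb3, and in 18.7% of the 9620 genes of the table with a coding transcript (in GENCODE M21 on GRCm38, the model with the longest coding part and, among equals, the longest transcript, read on its own strand). The 30-base windows are shown because 3 of the 4 genes were among those with the largest KO difference at the 1-cell stage. Capitals mark the element. In Psmb1 and Psmb3 it overlaps the poly(A) signal AATAAA, which is in capitals with it.
Psma1 (chr7:114264659-114264688, minus strand): ctataccaatgtTTTTATatgaagaaaata
Psma5 (chr3:108279910-108279939, plus strand): gtgtgtgtgtttTTTTATgaagtctgtaca
Psmb1 (chr17:15475027-15475056, minus strand): ttttgcttttTTTTAATAAActtctgttct
Psmb3 (chr11:97713467-97713496, plus strand): ttgtttttctTTTTAATAAAattgcctttc

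The log2 fold changes of these 4 genes at the 1-cell stage ran from 1.68 for Psmb3 to 4.39 for Psma5, with a median of 3.62. The other 30 members above the floor ran from 0.72 to 3.30, with a median of 1.45. Psmb7, Psma2 and Psmd5 held neither form in this window and stood at 3.30, 2.62 and 3.08. Over all genes of the table the median was 0.72 with an element and 0.56 without. Before the factor it was 0 in both classes, where the floor applied made many genes equal, so it cannot compare them. The members' medians on that scale were 2.74 with an element and 0.53 without. Their ranges of 0.67 to 3.52 and −0.28 to 2.41 overlapped. A match is a description of the letters, and no site was tested.

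Members had short transcripts. The median length was 1540 bases, against 2772 for the table, with 909 against 1329 coding bases and 270 against 849 bases of 3′ UTR. The 20 members above the floor with a 3′ UTR of up to 300 bases had a median 1-cell log2 fold change of 1.37, and the 14 with a longer one 1.81, with ranges of 0.72 to 4.39 and 0.80 to 3.98 that overlapped. Many members also share sequence with other annotated genes. Of all stretches of 31 bases, 74.0% in Psmb5, 66.8% in Psmb3, 64.0% in Psma5, 45.3% in Psmd2, 39.6% in Psmc1, 38.9% in Psma4 and 27.1% in Psma3 occurred in a transcript of another gene. How reads in such stretches were assigned is not given in the sources used here, so the levels of these genes are uncertain.

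From the 1-cell to the 2-cell embryo some proteasome genes rose and others fell in WT, whereas in KO embryos nearly all fell. In WT 7 members were called higher and 16 lower (9.45% and 29% of all genes), and before the factor the counts were 13 and 11 (21% and 14.9%). The 7 were Psmb5, Psmc3ip, Psmb1, Psmb4, Psmb7, Psma3 and Psmd14, and all 7 were called higher on both scales and after quantile normalization. On the deposited scale the call of Psma3 and Psmb7 ended without replicate 2 of the WT 1-cell or of the WT 2-cell group (lowest log2 fold change 0.46), and that of Psmd14 also without replicate 1 of the WT 1-cell group.

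Psmb5 went from 1 and 1.13 FPKM in WT 1-cell to 8.19 and 11.9 in WT 2-cell embryos, a rise whose size is not fixed, since the 1-cell values were at and next to the floor (log2 fold change 2.40 with an SE of 0.20 and a limma adjusted p of 2.13e-05). Psmb1 went from 4.32 and 3.21 to 12.8 and 19.97 (log2 fold change 1.85 with an SE of 0.24 and a limma adjusted p of 0.000281), and Psmb4 from 4.46 and 3.96 to 7.29 and 10.5 (log2 fold change 0.91 with an SE of 0.20 and a limma adjusted p of 0.00574). These 3 genes were chosen after their values were seen, and their libraries did not overlap between the stages. The steepest falls were those of Psma7, Psmd1 and Psma2. Psma7, an alpha gene, went from 121 and 101 to 4.23 and 6.40 FPKM (log2 fold change −4.17 with an SE of 0.22 and a limma adjusted p of 2.12e-06). Psmd1, for the largest scaffold of the base, went from 26.3 and 18.2 to 1.40 and 1.90 (log2 fold change −3.12 with an SE of 0.29 and a limma adjusted p of 4.04e-05), and Psma2 from 222 and 130.1 to 21.2 and 24.7 (log2 fold change −2.84 with an SE of 0.24 and a limma adjusted p of 2.37e-05).

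In KO, 34 members were called lower from the 1-cell to the 2-cell stage and 0 higher (60.7% and 0.646% of all genes), and before the factor 30 lower and 0 higher (16.7% and 10.9%). The steepest falls were those of the 3 alpha genes that were high in KO 1-cell embryos. Psma2 went from 1088 and 1010.4 to 17.6 and 19.4 FPKM (log2 fold change −5.75 with an SE of 0.24 and a limma adjusted p of 8.15e-07). Psma5 went from 144 and 159 to 2.60 and 1.61 (log2 fold change −5.63 with an SE of 0.24 and a limma adjusted p of 8.15e-07), and Psma1 from 263 and 238 to 12.3 and 19.2 (log2 fold change −3.94 with an SE of 0.24 and a limma adjusted p of 2.42e-06). In these 3 genes the 2-cell libraries lay far below the 1-cell libraries. Psmb5 went down as well, from 5.74 and 7.74 to the floor in both KO libraries.

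At the 2-cell stage the KO difference had turned for many members: 17 were called lower and 3 higher in KO than in WT, beside 12% and 7.56% of all genes. Before the factor the counts were 18 and 3 (18.7% and 11.1%). All 20 deposited calls were also made before the factor and after quantile normalization. The 18th was Psmd13, at 1.19 and 1.29 FPKM in WT and at the floor in KO. The members' median log2 fold change was −0.60 on the deposited scale, against 0 over all genes, and −0.74 before the factor. The KO libraries lay below WT for 22 members and above for 6, and overlapped for 9. Overlap over all genes was not worked out here either, so these counts have no baseline. Without 1 library the members' median log2 fold change ran from −0.70 to −0.24, and some calls ended. The calls that ended were Psma5, Psmc3, Psmc4, Psmc5, Psmd3 and Psmd12, and Psmd3 and Psmc3 were lost without any 1 of the 4 libraries.

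Among the protease genes, Psmb5 stood at 8.19 and 11.9 FPKM in WT and at the floor in both KO libraries (log2 fold change −2.45 with an SE of 0.20 and a limma adjusted p of 4.36e-05). Psmb7 stood at 10.1 and 14.3 in WT and 4.31 and 4.26 in KO embryos (log2 fold change −1.30 with an SE of 0.20 and a limma adjusted p of 0.00169). Psmb6 stood at 7.37 and 7.07 in WT and 6.02 and 10.3 in KO embryos (log2 fold change 0.12 with an SE of 0.23 and a limma adjusted p of 1). The genotypes were apart for the first pair of genes and overlapped for Psmb6, whose log2 fold change had an SE of 0.23. The structural gene Psmb4 was also lower, at 7.29 and 10.5 in WT and 2.11 and 2.03 in KO embryos (log2 fold change −1.67 with an SE of 0.20 and a limma adjusted p of 0.000459). Psmb1, chosen after its values were seen, stood at 12.8 and 19.97 in WT and 3.73 and 5.93 in KO 2-cell embryos (log2 fold change −1.57, limma, adjusted p = 0.00176).

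In the alpha ring 3 genes were called lower. Psma3 stood at 13.3 and 17.1 FPKM in WT against 3.29 and 2.11 in KO embryos (log2 fold change −2.14 with an SE of 0.21 and a limma adjusted p of 0.000138). Psma6 stood at 9.15 and 16.3 in WT and 3.10 and 2.78 in KO embryos (log2 fold change −1.75 with an SE of 0.27 and a limma adjusted p of 0.00163). Psma5 was the third gene, with a log2 fold change of −0.96. In the same ring Psma7 was called higher, at 4.23 and 6.40 in WT and 14.8 and 20.8 in KO embryos (log2 fold change 1.58 with an SE of 0.22 and a limma adjusted p of 0.000889). The other genes called higher were Psmb2 of the beta ring and the chaperone gene Psmd10. Psmb2 stood at 11.2 and 13.97 in WT and 24.7 and 32.1 in KO embryos (log2 fold change 1.11 with an SE of 0.20 and a limma adjusted p of 0.00377). Both WT libraries listed Psmd10 at the floor, and it stood at 3.54 and 4.62 in KO embryos (log2 fold change 1.34 with an SE of 0.21 and a limma adjusted p of 0.0018). Subunits of 1 ring therefore differed from WT in opposite directions at this stage.

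In the cap 4 of 6 ATPase genes (Psmc1, Psmc3, Psmc4 and Psmc5) and 5 of 8 lid genes (Psmd3, Psmd6, Psmd7, Psmd12 and Psmd14) were called lower, and 0 of 3 base genes were called. Their log2 fold changes ran from −1.57 for Psmd6 to −0.63 for Psmc3. Psmc4 and Psmc5 were at the floor in both KO libraries. Psmc3ip stood at 6.67 and 8.90 FPKM in WT and at the floor in both KO libraries (log2 fold change −2.12 with an SE of 0.23 and a limma adjusted p of 0.000249). Where a group was at the floor the size of the difference is not fixed, which holds for Psmb5, Psmc3ip, Psmc4, Psmc5 and Psmd10.

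**Figure D5:**
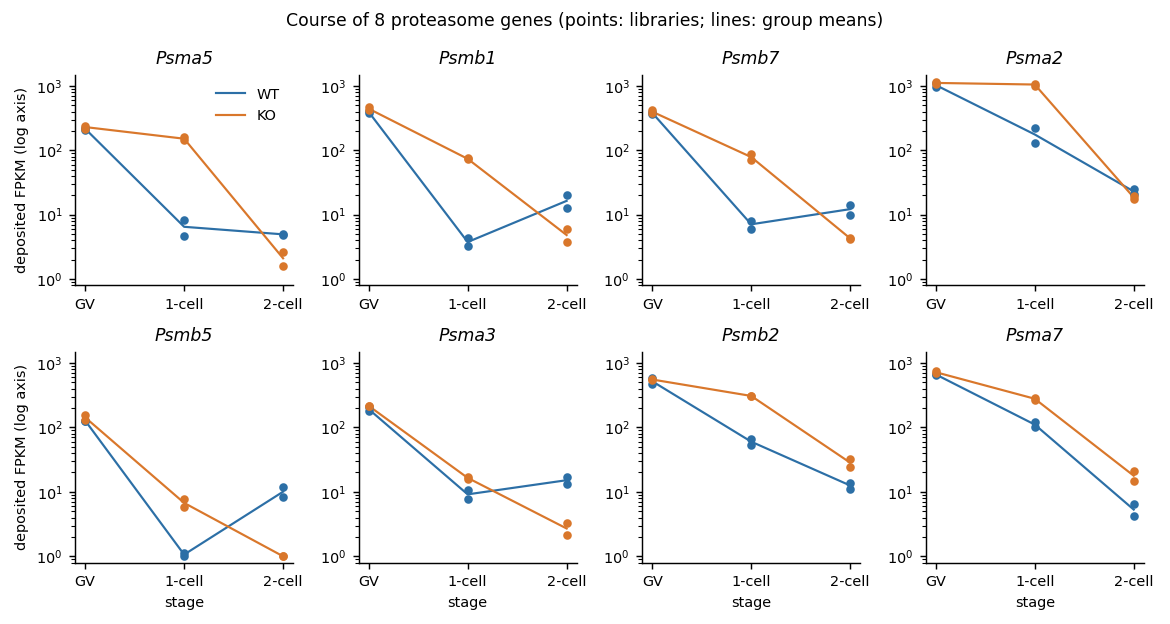
Deposited FPKM (log axis) of 8 members at the 3 stages in WT and KO (points: libraries; lines: means of 2). KO 1-cell values stay near the oocyte level for Psma2 (1010 and 1088 FPKM) and fall below 10 FPKM for Psmb5, and at the 2-cell stage KO lies below WT for Psmb5 and Psma3 and above it for Psmb2 and Psma7.

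Promoters are shown for 3 genes that were lower in KO at the 2-cell stage and that rose in WT from the 1-cell stage, and for 1 that was higher in KO. Psmd14 and Psmc3ip were also lower in KO and rose in WT, but their promoters are not shown. Psmb1 and Psmb7 did so too, and had no promoter entry. In fibroblasts and other mammalian cells the transcription factors Nrf1 (Nfe2l1) and Nfe2l2 act on proteasome genes through antioxidant response elements. Searched on both strands were TGACNNNGC, the core of that element, the CCAAT box and the GC box GGGCGG. Sequences are the 250 bases upstream of the RefSeq start on GRCm38.p6, with every match in capitals, also where it reads in reverse (ATTGG).
Psmb5 (chr14:54617996-54618245, minus strand): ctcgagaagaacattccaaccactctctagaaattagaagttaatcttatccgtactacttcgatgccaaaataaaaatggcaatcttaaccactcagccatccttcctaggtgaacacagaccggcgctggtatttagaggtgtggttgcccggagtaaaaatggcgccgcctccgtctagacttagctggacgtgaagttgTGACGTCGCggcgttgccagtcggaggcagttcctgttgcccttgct
Psmb4 (chr3:94886959-94887208, minus strand): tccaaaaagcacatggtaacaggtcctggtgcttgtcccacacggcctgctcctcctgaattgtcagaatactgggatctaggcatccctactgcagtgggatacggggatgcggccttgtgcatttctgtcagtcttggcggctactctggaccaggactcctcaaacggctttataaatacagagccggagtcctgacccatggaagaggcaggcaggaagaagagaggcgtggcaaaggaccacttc
Psma3 (chr12:70974373-70974622, plus strand): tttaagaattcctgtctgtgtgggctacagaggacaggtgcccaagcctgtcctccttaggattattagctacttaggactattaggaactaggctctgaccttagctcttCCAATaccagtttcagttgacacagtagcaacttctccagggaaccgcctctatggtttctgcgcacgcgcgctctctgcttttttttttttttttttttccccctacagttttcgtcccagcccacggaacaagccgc
Psmd10 (chrX:140956712-140956961, minus strand): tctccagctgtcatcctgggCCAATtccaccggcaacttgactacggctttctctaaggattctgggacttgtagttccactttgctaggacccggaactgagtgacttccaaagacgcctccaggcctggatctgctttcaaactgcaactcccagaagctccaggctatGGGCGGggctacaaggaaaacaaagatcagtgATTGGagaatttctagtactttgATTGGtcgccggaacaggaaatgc

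The promoter of Psmb5 held TGACNNNGC once, 47 bases upstream of the start, that of Psma3 held 1 CCAAT box, and that of Psmd10 held 3 CCAAT boxes and 1 GC box. That of Psmb4 held none of the 3 motifs in this window. Of the promoters not shown, that of Psmd14 held 1 CCAAT box and 3 GC boxes and that of Psmc3ip 1 CCAAT box. Neither held TGACNNNGC. Over the 31 members with an entry, TGACNNNGC occurred in 5 (16.1%), against 10.2% of the 32851 promoters of the reference table. The CCAAT box occurred in 13 (41.9%, against 33.8%) and the GC box in 17 (54.8%, against 32.7%). A member counted if any of its entries matched (33 entries for 31 members), whereas the reference percent is per entry. The reference was also not limited to genes of the expression table, so the percents compare only roughly. These are descriptions of letters, and binding was not measured.

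Other ways of scaling the columns gave counts of their own. In oocytes quantile normalization called 0 higher and 0 lower (0.00885% and 0.00885% of all genes), and median-ratio size factors called 0 higher and 0 lower (0.0177% and 0.00885% of all genes). At the 1-cell stage quantile normalization called 17 higher and 2 lower (12.8% and 16.4% of all genes), and median-ratio factors called 19 higher and 3 lower (10.4% and 38.4% of all genes). The lower calls were those of Psmb10, Psmb11 and, with median-ratio factors, Psmd13, genes at the floor in all libraries of the stage. At the 2-cell stage the counts were 7 higher and 19 lower (23.9% and 19.2% of all genes) and 5 higher and 18 lower (11.4% and 20% of all genes), in the same order. Both scalings thus called more members higher than lower in KO at the 1-cell stage and more lower than higher at the 2-cell stage. From the oocyte to the 1-cell embryo they called 3 higher and 24 lower (33.4% and 23.8% of all genes) and 3 higher and 29 lower (39.8% and 29.4% of all genes) in WT. In KO they called 7 higher and 19 lower (23.1% and 19.9% of all genes) and 4 higher and 21 lower (22% and 29.1% of all genes). From the 1-cell to the 2-cell embryo they called 10 higher and 11 lower (20% and 26.3% of all genes) and 19 higher and 11 lower (63.4% and 16.6% of all genes) in WT. In KO they called 3 higher and 30 lower (36.2% and 27.6% of all genes) and 3 higher and 32 lower (58.6% and 18.3% of all genes). The split of WT calls from the 1-cell to the 2-cell stage therefore turned with the scale, while in KO most calls were lower on all 4 scales. The 3 called higher in KO at that step by both were Psmb10, Psmb11 and Psmd13, at the floor in all 4 libraries. In WT from the oocyte to the 1-cell embryo, Psmb10 and Psmb11 were 2 of the 3 called higher by each scaling. The same pair gave 2 of 7 higher calls at the 2-cell stage after quantile normalization. With median-ratio factors it gave 2 of 4 in KO at the first step and 2 of 19 in WT at the second. Both were at the floor in all embryo libraries, so these calls show no rise.

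The difference of the KO effect between stages was tested as an interaction. Between oocytes and 1-cell embryos it was called higher in 29 members and lower in 0 (38.7% and 0.859% of all genes), and before the factor in 13 and 0 (4.04% and 0.823%). The largest values were those of Psma5 (interaction 4.30 with an SE of 0.34 and a limma adjusted p of 0.000242), Psmb1 (interaction 3.81 with an SE of 0.34 and a limma adjusted p of 0.000335) and Psmb7 (interaction 3.24 with an SE of 0.28 and a limma adjusted p of 0.000297). Between 1-cell and 2-cell embryos it was called lower in 30 members and higher in 0 (35.7% and 0.239%), and before the factor in 22 and 1 (15.8% and 5.91%). The same 3 genes led: Psmb1 (interaction −5.55 with an SE of 0.34 and a limma adjusted p of 2.13e-05), Psma5 (interaction −5.34 with an SE of 0.34 and a limma adjusted p of 2.14e-05) and Psmb7 (interaction −4.60 with an SE of 0.28 and a limma adjusted p of 2.13e-05). Quantile normalization and median-ratio factors called 11 higher and 1 lower (5.81% and 2.86% of all genes) and 16 higher and 2 lower (6.48% and 25.4% of all genes) for the first interaction, and 5 higher and 22 lower (31.4% and 19.6% of all genes) and 4 higher and 25 lower (29.7% and 16.7% of all genes) for the second. With these scalings the lower calls of the first, and 2 of the higher calls of the second by each, were of Psmb10 or Psmb11. Both interactions share the 1-cell libraries.

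Of 32 genes that act with the proteasome (activators, an inhibitor, chaperones, ubiquitin receptors, deubiquitinases and regulators), 30 had an entry. In oocytes 0 were called in either direction. At the 1-cell stage 24 were called higher and 0 lower in KO as deposited (52.7% and 0.0974% of all genes), and 5 higher before the factor (8.05%): Shfm1, Psmg3, Akirin2, Usp14 and Uchl5. At the 2-cell stage 6 were called higher and 1 lower (7.56% and 12%), and before the factor 7 and 4 (11.1% and 18.7%). Their median log2 fold change at the 1-cell stage was 0.96 as deposited, against 0.57 over all genes, and 0.06 before the factor, against 0. Over genes above the floor the median log2 ratio, with no 1 added, was 1.04 as deposited, so the list showed no excess over them.

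Shfm1 encodes Sem1, a small lid subunit whose symbol does not match the rule. It stood at 575 and 593 FPKM in WT against 588 and 689.97 in KO oocytes, and at 30.98 and 18.3 in WT and 509 and 426 in KO 1-cell embryos (log2 fold change 4.23 with an SE of 0.30 and a limma adjusted p of 2.95e-05). At the 2-cell stage it stood at 18.8 and 24.1 in WT and 114 and 191 in KO embryos (log2 fold change 2.74 with an SE of 0.30 and a limma adjusted p of 0.000249). Shfm1 was thus higher in KO at both embryo stages, whereas 0 of the 8 lid genes above were called higher at the 2-cell stage. Psmg3, a chaperone of 20S assembly, stood at 1.97 and 1.30 in WT and 11.698 and 21.002 in KO 1-cell embryos (log2 fold change 2.68 with an SE of 0.28 and a limma adjusted p of 0.000161). Akirin2 takes part in the nuclear import of the proteasome. It stood at 68.7 and 67.3 in WT and 206 and 251 in KO 1-cell embryos (log2 fold change 1.73 with an SE of 0.17 and a limma adjusted p of 0.000106), and at 13.01 and 14.8 and 47.5 and 48.8 in 2-cell embryos (log2 fold change 1.72 with an SE of 0.17 and a limma adjusted p of 0.000118). Adrm1, the gene of a ubiquitin receptor of the base, was the 1 called lower at the 2-cell stage, at 8.57 and 6.68 in WT and at the floor in both KO libraries (log2 fold change −2.10 with an SE of 0.26 and a limma adjusted p of 0.000547).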

How the data were processed

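The authors deposited 1 table of FPKM values with 1 column for each of the 12 libraries. TopHat2 2.1.1, Cufflinks 2.2.1 and the mouse build mm9 are named per the submitters' processing notes, and the table held no coordinates. Per the labels' protocols, cDNA was made with Smart-seq2 from 10 oocytes or embryos per library, with ERCC spike-in RNA added at lysis. Of its entries 11298 were complete and 0 were ERCC. The last, incomplete entry was left out.

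In the 8 embryo columns all values above the floor of 1 FPKM were whole multiples of a 6-digit value times 1 number per library, allowing a deviation of 0.01 of the last digit, and this number was taken as the library factor. Log2(FPKM + 1) of the deposited values went into a limma fit (version 3.58.1, R 4.3.3), with an intensity trend, all 12 libraries in 1 fit and 1 coefficient per group. Tests were two-sided, with Benjamini-Hochberg adjustment over all genes within each of 9 comparisons. The design and the fit were tested on simulated data. Values divided by the factor had the highest floor of the compared libraries applied. The other alternatives were quantile normalization, median-ratio size factors, a pseudocount of 0.1, a mean of at least 5 FPKM, leaving out each library, the replicate number as a block, and fitting only the compared libraries. Depth is unknown, so no counting interval is given.

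The members and gene lists were chosen with earlier results of these data known. Named with full statistics were, at each stage, the 6 members with the largest absolute change among those called, up to 3 called in the less frequent direction, and the catalytic genes with Psmb10. In each stage transition and interaction the 3 members with the largest change were named, and of the associated list the 3 with the largest change. Genes outside this rule are said to be so. Sequences come from RefSeq (GRCm38.p6) and GENCODE M21 (GRCm38), 31 members having a promoter entry and 37 a coding transcript.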

Additional observations from a re-analysis of the deposited data

Results flagged for a closer look

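The KO effect differed between stages by the test of the difference itself (interaction, limma). Between oocytes and 1-cell embryos 29 members had a KO effect that was called higher at the 1-cell stage, beside 38.7% of all genes, and before the library factor 13 (4.04%). The largest differences on the log2 scale were those of Psma5 (4.30), Psmb1 (3.81) and Psmb7 (3.24). Between 1-cell and 2-cell embryos 30 members had a KO effect that was called lower at the 2-cell stage, beside 35.7% of all genes, and before the factor 22 (15.8%). The largest were those of Psmb1 (−5.55), Psma5 (−5.34) and Psmb7 (−4.60). These 3 genes were higher in KO 1-cell embryos and lower in KO 2-cell embryos than in WT, with no overlap of the libraries at either stage. Groups held 2 libraries each, so single libraries that stand apart could not be tested.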

How the results depend on the processing

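Both the scale of the embryo columns and the libraries in the fit moved the counts. Members called higher in KO at the 1-cell stage numbered 32 as deposited, 17 before the factor, 17 after quantile normalization and 19 with median-ratio size factors, and those called lower 0, 0, 2 and 3. At the 2-cell stage the higher calls were 3 as deposited, 7 after quantile normalization and 5 with median-ratio factors. From the oocyte to the 1-cell stage 3 members were called higher in WT after quantile normalization and 3 with median-ratio factors, and in KO 2 before the factor, 7 after quantile normalization and 4 with median-ratio factors. On each scale 2 of the 3 in WT, and with median-ratio factors 2 of the 4 in KO, were Psmb10 and Psmb11. Both were at the floor in all embryo libraries. From the 1-cell to the 2-cell stage in WT 13 were higher before the factor and 19 with median-ratio factors, against 7, and in KO 3 after quantile normalization and 3 with median-ratio factors, against 0. Those 3 in KO were Psmb10, Psmb11 and Psmd13, at the floor in all 4 libraries. The interaction between oocyte and 1-cell stage called 13, 11 and 16 members higher on these 3 scales, against 29, and 0, 1 and 2 lower. That between 1-cell and 2-cell stage called 1, 5 and 4 higher, against 0. Psmb10 and Psmb11 were also among these 5 and 4, the 7 higher at the 2-cell stage and the 19 in WT.

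Fits of only the compared libraries, which have 2 residual degrees of freedom in the genotype comparisons, called 9 members higher at the 1-cell stage, 0 higher and 7 lower at the 2-cell stage, and 4 higher from the 1-cell to the 2-cell stage in WT. The share of all genes called in these fits was not worked out, so the counts have no baseline. Without 1 library the counts ranged from 26 to 34 higher at the 1-cell stage, 3 to 3 higher and 12 to 13 lower at the 2-cell stage, 0 to 1 higher and 0 to 1 lower in oocytes, and 4 to 8 higher from the 1-cell to the 2-cell stage in WT. For the interactions they ranged from 21 to 31 higher and 0 to 1 lower (oocyte and 1-cell) and from 25 to 32 lower (1-cell and 2-cell). The log2 fold change of Psmb6 in oocytes changed sign to −0.0321 after quantile normalization and ranged from −0.00838 to 0.0808 without 1 library, that of Psmb7 from −0.0248 to 0.140, and that of Psmb6 at the 2-cell stage from −0.228 to 0.465, the lowest being without KO replicate 2. None of these was called.

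Replicate numbers did not pair the libraries: differences between replicate 1 and 2 correlated across groups at −0.40 to 0.17. With the replicate block the counts were 32 higher at the 1-cell stage and 3 higher and 16 lower at the 2-cell stage. The share of all genes called with the block was not worked out. The cause of these shifts was not tested. Depth, the floor and 2 libraries a group limit what can be told for genes of a few FPKM.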
